A study of Mus musculus with 2 samples.

Results

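The genes of the cytosolic ribosomal proteins were examined in RNA of mouse cerebellum, taken at postnatal day 7. Members were taken by symbol: every gene on the array annotation whose symbol begins with Rpl or Rps and a digit, together with Rplp0, Rplp1, Rplp2 and Rpsa. S6 kinase genes, pseudogene symbols ending in -ps and probe sets naming several genes were left out. This gave 48 of the 19503 genes with a value, 27 with large subunit symbols and 21 with small subunit symbols. The mice are of the line Tg(Pcp2-L10a-Egfp), in which the Purkinje cell promoter Pcp2 drives ribosomal protein L10a joined to green fluorescent protein. Translating ribosome affinity purification (TRAP) uses antibodies against that tag to collect tagged ribosomes with the mRNA on them. The TRAP array holds RNA eluted from the antibody beads, and the unbound array holds RNA of the supernatant that the beads did not retain; both fractions come from transgenic mice, for which no treatment is listed. Cerebella were pooled, the number of animals is not stated, and the unbound fraction is not total input: it holds RNA of every other cell type and whatever Purkinje cell RNA escaped the beads. Each fraction was hybridised to 1 array, so that no replicate, error or test exists for any difference below.

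The cytosolic ribosome is built of a large and a small subunit, each an rRNA scaffold studded with ribosomal proteins that are needed in matched amounts. In mammals their mRNAs share a tract of pyrimidines at the very 5′ end, the terminal oligopyrimidine (TOP) motif, through which mTOR signalling governs their translation as a group. In TRAP these genes have a particular place, because the bait is itself a ribosomal protein, while the assay collects mRNAs that ribosomes are reading and not the proteins inside the ribosome. Values are log2 expression per gene, averaged over its probe sets, and a difference is always TRAP minus unbound.

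Rule-based membership does not make every member a structural ribosomal protein. Of the 48, 39 are core ribosomal proteins, 22 of the large and 17 of the small subunit. The other 9 comprise 7 paralogs (Rpl3l, Rpl7l1, Rpl10l, Rpl32l, Rpl39l, Rps4l and Rps27l), Rps23rg1, known as a retroposed copy of Rps23, and Rps19bp1, which encodes a partner of the S19 protein. RefSeq lists Rps4l as a transcribed pseudogene and the remaining 47 members as protein-coding. By the same symbol rule RefSeq holds 89 protein-coding genes, of which 37 were not analysed here and 5 stand only on probe sets that name a second gene.

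A floor was set at 7.08, the median over both arrays of every probe set, and a gene passed it with its higher value. This held for 42 members, 22 large and 20 small subunit symbols, and 41 of them exceeded it on both arrays. The 6 members at or below it include Rpl3l, known as the striated muscle paralog of Rpl3, with 5.24 in TRAP and 4.88 in unbound. Rpl10l and Rpl39l, paralogs known from testis, read 4.75 and 4.28 in TRAP, against 4.92 and 4.04 in unbound. Rps23rg1 read 5.87 in TRAP and 5.91 in unbound. The other two are core members: Rpl12, part of the base of the large subunit stalk, read 5.82 in TRAP and 5.76 in unbound, and Rpl30, also of the large subunit, read 5.37 in TRAP and 5.60 in unbound. Each of these 6 genes has 1 probe set. The table has no detection calls, so whether those probe sets measured their transcripts is not known.

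No member above the floor differed 2-fold between the fractions in either direction, where, among all 10524 genes passing the floor, 8.11% were 2-fold or more higher in TRAP and 18.6% in unbound. The median difference of the 42 members was 0.16, a 1.11-fold difference, with quartiles of 0.02 and 0.53. Over all genes above the floor the median was -0.13 and the quartiles were -0.76 and 0.43. The interquartile range was thus 0.52 for the family and 1.19 for all genes. Of the 42 members, 33 were higher in TRAP and 9 in unbound, beside 44.1% of all genes higher in TRAP. At 1.5-fold, 8 members were higher in TRAP and 0 in unbound, beside 18.8% and 30.9% of all genes. These counts rest on the scaling of the arrays, whose medians are 6.92 for TRAP and 7.25 for unbound. With each array's median subtracted, every difference gained 0.33, 41 members were higher in TRAP (beside 59.1% of all genes), and 7 were at least 2-fold higher (beside 16.1% of all genes). After quantile normalization 30 members were higher in TRAP (beside 52.0%) and 4 at least 2-fold higher (beside 11.8%). With a loess trend of difference on level removed, 25 were higher in TRAP (beside 46.9%) and 1 at least 2-fold higher (beside 9.35%). Under these 3 scalings 0 members were 2-fold higher in unbound, beside 11.8%, 14.1% and 16.5% of all genes.

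**Figure D1:**
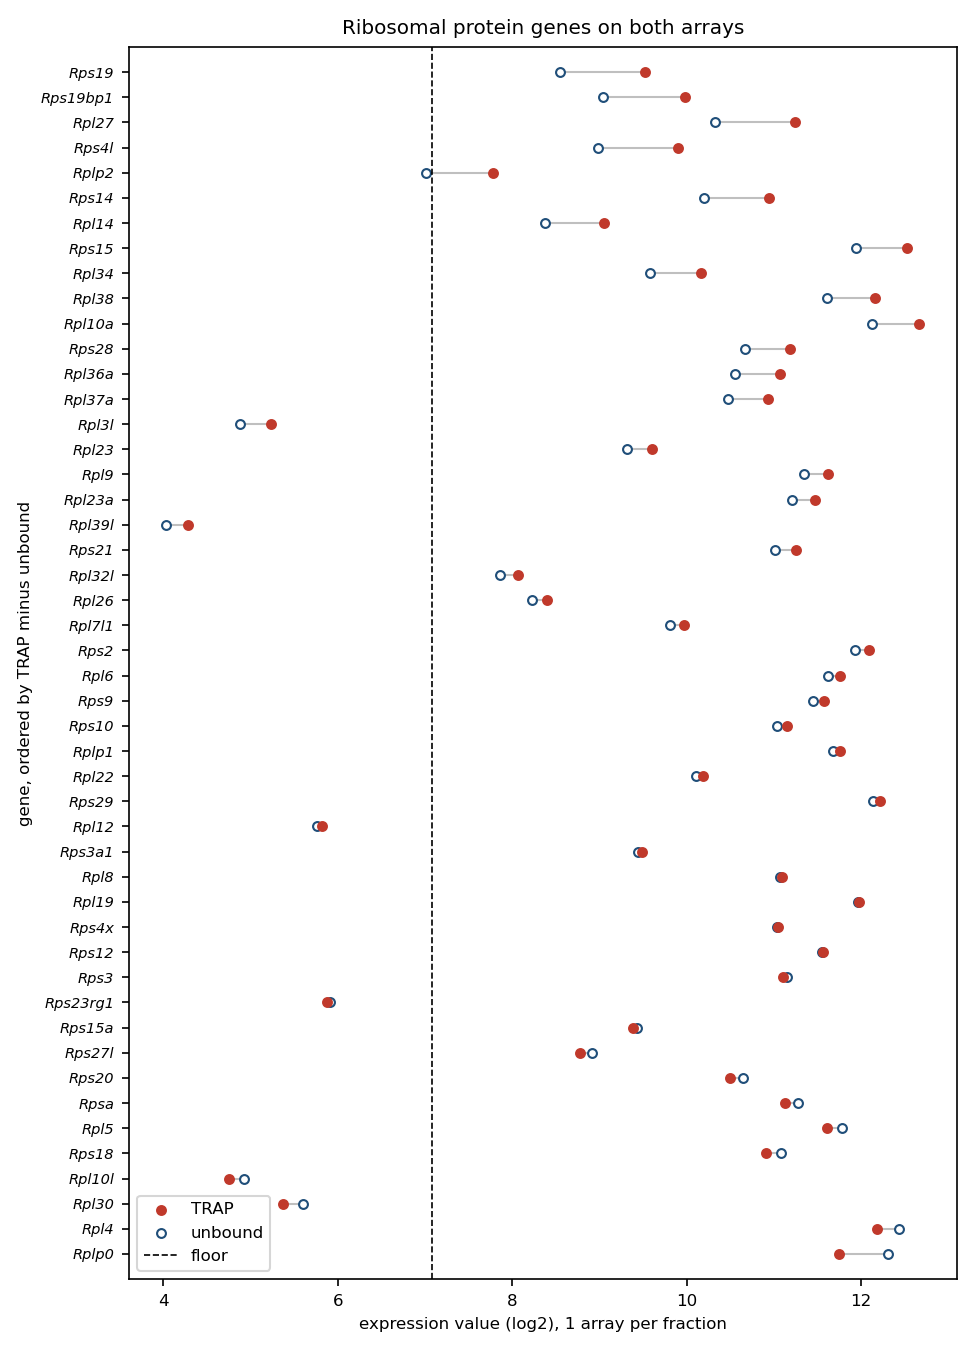
Log2 values of the 48 members, 1 row per gene ordered by TRAP minus unbound; filled points are the TRAP array, open points the unbound array, and the dashed line is the floor of 7.08. Rps19 stands at the top with 9.53 against 8.55, Rplp0 at the bottom with 11.75 against 12.31, and points of the genes between Rps29 and Rps15a nearly coincide.

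The 8 largest differences ran from 0.59 to 0.97. Rps19, a small subunit protein needed for rRNA maturation, read 9.53 in TRAP and 8.55 in unbound. That 1.97-fold difference was the largest among the 42 members. Rps19bp1 read 9.98 in TRAP and 9.04 in unbound. Rpl27, a large subunit protein, read 11.24 in TRAP and 10.33 in unbound, and its 4 probe sets gave differences of 0.87 to 0.95. These 3 genes stood close to the 2-fold line without reaching it, and with the array medians subtracted they differed by 1.31, 1.27 and 1.24.

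Rps4l read 9.90 in TRAP and 8.99 in unbound, which is 1.88-fold. Rplp2, an acidic protein of the stalk that recruits translational GTPases, read 7.78 in TRAP and 7.01 in unbound, with its unbound value below the floor. Rps14, a small subunit protein near the messenger channel whose loss is known from a human blood disorder, read 10.95 in TRAP and 10.20 in unbound. Rps14 was thus 1.68-fold and Rplp2 1.70-fold higher in TRAP. Rpl14 read 9.05 in TRAP and 8.37 in unbound, and Rps15, whose protein lies by the decoding site, read 12.53 in TRAP and 11.94 in unbound.

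Rplp0, which anchors the stalk to the large subunit, had the lowest mean difference of the family. It read 11.75 in TRAP and 12.31 in unbound, 1.47-fold higher in unbound, and as averaged over probe sets it was the only member past -0.3. With the brightest probe set of each gene, Rpsa was lower, at -0.64, and Rplp0 stood at -0.50. Rpl4, a large subunit protein reaching into the exit tunnel, read 12.19 in TRAP and 12.44 in unbound. Rps18 read 10.91 in TRAP and 11.09 in unbound, and Rpl5, which joins the large subunit together with the 5S rRNA, read 11.62 in TRAP and 11.78 in unbound. All 4 genes were higher in unbound as deposited. Subtraction of the array medians left Rplp0 alone below 0, at -0.22. Rplp0, Rpl4, Rps18 and Rpl5 all stayed below 0 after quantile normalization and with the loess trend removed.

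The remaining members of the lowest 8 differed by less than 0.2. Rpsa, of the small subunit's mRNA exit side and also known as a laminin receptor, read 11.13 in TRAP and 11.28 in unbound. Rps20 read 10.50 in TRAP and 10.65 in unbound. Rps27l, a paralog of Rps27 known as a p53 target, read 8.77 in TRAP and 8.91 in unbound, and Rps15a read 9.39 in TRAP and 9.44 in unbound. In all, 27 of the 42 members differed by less than 0.3, 14 were higher in TRAP by more than that, and 1, Rplp0, was lower in TRAP by more than that.

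Rpl10a encodes the protein that carries the tag and forms the mobile stalk by which deacylated tRNA leaves the ribosome. It read 12.67 in TRAP and 12.13 in unbound, a difference of 0.54, and stood at rank 11 of the 42 members. Whether its probe sets also read the transgene's mRNA was not examined. Its neighbours in that order were Rpl38, with 12.16 in TRAP and 11.61 in unbound, and Rps28, with 11.19 in TRAP and 10.67 in unbound, neither of them tagged. Rpl38 is known in mouse for its part in translating Hox mRNAs, and Rps28 sits at the mRNA exit side of the small subunit. Rpl34, Rpl36a and Rpl37a differed by 0.58, 0.51 and 0.46. The tagged gene thus lay inside a run of 7 genes, ranks 8 to 14, that differed by 0.46 to 0.59.

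Members of one structural neighbourhood did not share one difference. Among the 3 stalk proteins, Rplp2 differed by 0.77, Rplp1 by 0.09 and Rplp0 by -0.55. Rplp2 has 1 probe set, and only its TRAP value exceeded the floor (7.78 in TRAP and 7.01 in unbound). Rplp1 read 11.76 in TRAP and 11.67 in unbound, and its difference turned slightly negative after quantile normalization and with the loess trend removed (-0.05). Of the proteins around the exit of the nascent chain, 5 were measured and all were higher in TRAP, from Rpl19 at 0.02 to Rpl38 at 0.55, with Rpl23a at 0.26, Rpl26 at 0.17 and Rpl22 at 0.08. Rpl19, at 11.98 in TRAP and 11.96 in unbound, turned negative after quantile normalization (-0.06) and with the loess trend removed (-0.13). At the mRNA entry side, Rps2 differed by 0.15 and Rps3 by -0.04. Rps3 turned positive, 0.29, with the array medians subtracted, and stood at -0.11 after quantile normalization and -0.14 with the loess trend removed.

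Genes mutated in the human bone marrow disorder Diamond-Blackfan anaemia spanned most of the family's range. Of the 19 on the list, 8 were measured, 6 of them higher in TRAP, with a median of 0.14. They include the largest difference (Rps19), Rpl27 and Rps28, and on the other side Rpl5 at -0.16 and Rps15a at -0.05. Rps10 and Rps29 differed by 0.11 and 0.08, Rps29 turning to -0.08 with the loess trend removed. Subtracting the array medians gave Rps15a 0.28 and Rpl5 0.17. Quantile normalization gave Rps15a 0.08 and Rpl5 -0.24, and removal of the loess trend gave them -0.01 and -0.30.

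Large subunit symbols above the floor had a median difference of 0.23 and small subunit symbols one of 0.09. In the large subunit 19 of 22 members were higher in TRAP, in the small subunit 14 of 20. The ranges overlapped, running from -0.55 to 0.91 for the large and from -0.18 to 0.97 for the small subunit. Restricting the count to core proteins gave medians of 0.27 for 20 large and 0.08 for 17 small subunit members. The gap between the medians was 0.13. It was 0.26 after quantile normalization, 0.24 with the loess trend removed and -0.01 among the 21 members with a mean above 11. Members are not replicates, so the subunits were not tested against each other.

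**Figure D2:**
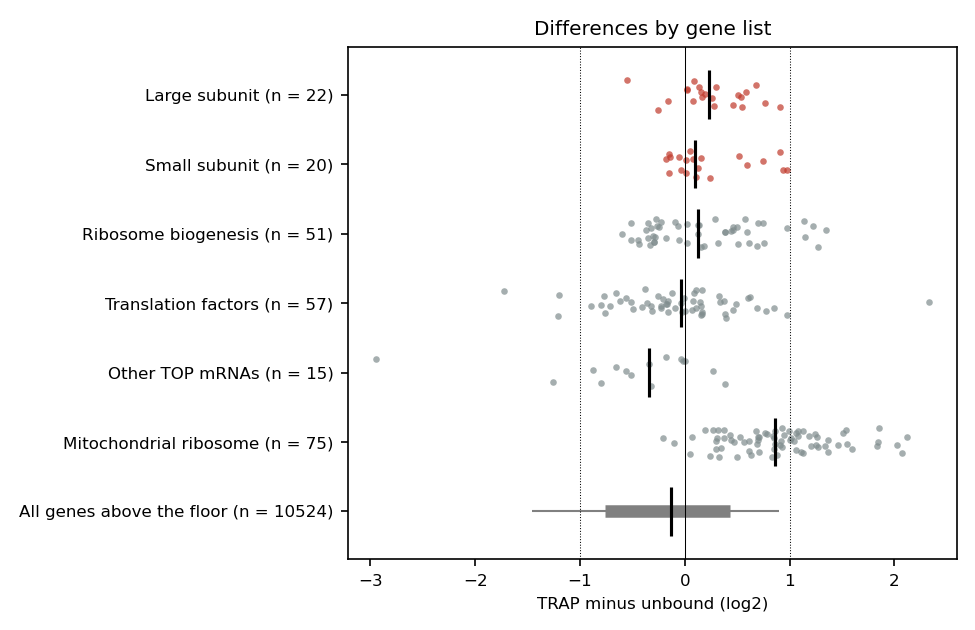
TRAP minus unbound (log2) for members of each gene list above the floor, 1 point per gene, with black bars at the medians and dotted lines at a 2-fold difference; for all genes the thick bar spans the quartiles and the thin line the 10th to 90th percentiles. Both subunits lie within the dotted lines around medians of 0.23 and 0.09, while the mitochondrial ribosome has a median of 0.86.

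Of the paralog pairs, both genes were measured only for Rps4x and Rps4l. Rps4x, the X-linked gene of a core small subunit protein, read 11.05 in TRAP and 11.04 in unbound, a difference of 0.01. Rps4l differed by 0.91, so the difference of the paralog was 0.90 larger than that of its core gene. In level Rps4l was below Rps4x on both arrays, at 9.90 in TRAP and 8.99 in unbound. Both probe sets of Rps4l were higher in TRAP, by 0.81 and 1.01, while the 5 of Rps4x ran from -0.04 to 0.11, so that the probe sets of the genes did not overlap. Rpl7l1, related to Rpl7, read 9.97 in TRAP and 9.81 in unbound, and Rpl32l read 8.06 in TRAP and 7.86 in unbound. The partners Rpl3, Rpl7, Rpl10, Rpl39 and Rps27 were not analysed here.

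The 48 members are covered by 135 probe sets, and 22 of them by more than 1, up to 14 for Rps12. Ribosomal protein genes have many processed copies across the genome, and probe sets for such copies can share probes with the parent gene: 18 of the 135 have the same pair of values as another probe set of the same gene. Probe sets of a gene are therefore not independent measurements. The median range of differences within a gene was 0.13 over the 22 genes with several. Between the 42 members above the floor the standard deviation was 0.37, which is another measure over another set of genes. In 7 of the 22 genes the range was below 0.1, and in 3 it exceeded 0.3. All probe sets had one sign in 16 genes.

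Rpsa had the widest range. Its 5 probe sets gave differences from -0.64 to 0.12, and 1 probe set, at 11.50 in TRAP and 12.14 in unbound, held the lowest value. Rpl23a had 12 probe sets between 0.22 and 0.34 and another at 0.02. Rps2 ranged from -0.04 to 0.28. At the other end, Rpl36a and Rps29 agreed to within 0.01, and the 4 probe sets of Rpl10a lay between 0.52 and 0.56. For Rps12, whose mean was 11.57 in TRAP and 11.56 in unbound, 9 of the 14 probe sets gave one and the same difference of 0.01. When only the brightest probe set of each gene was used, the family's median was 0.15, and 31 members were higher in TRAP (beside 44.2% of all genes).

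**Figure D3:**
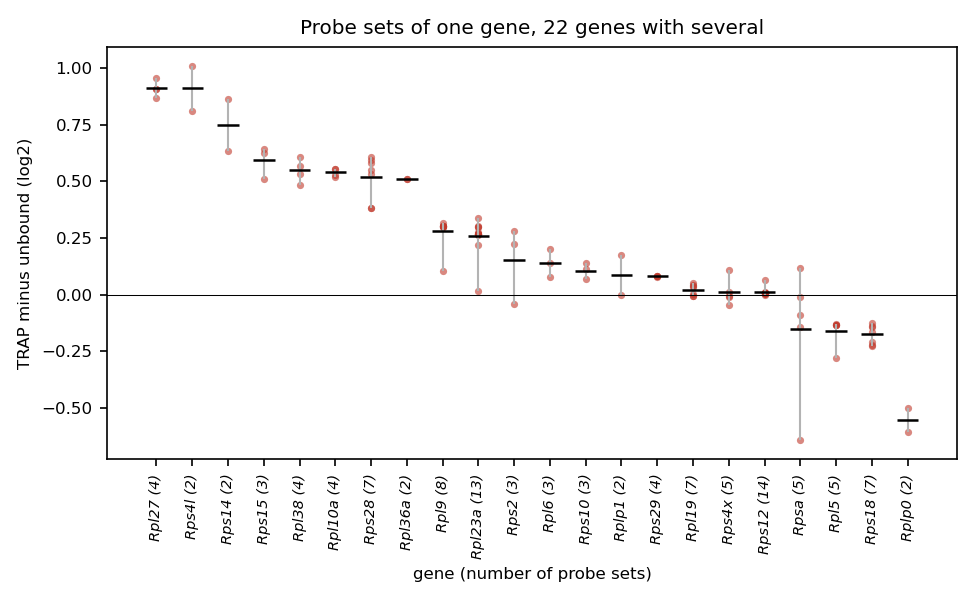
TRAP minus unbound (log2) of each probe set for the 22 members with several, ordered by their mean (black bar), with the number of probe sets in brackets and grey lines from lowest to highest. The 4 probe sets of Rpl27 lie between 0.87 and 0.95, those of Rplp0 at -0.61 and -0.50, and those of Rpsa spread from -0.64 to 0.12.

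The family's differences were also set against level. Across the 42 members the difference fell with the mean of both arrays (Pearson r = -0.34, Spearman rho = -0.33, n = 42 genes of the same 2 arrays, described without a test). Among the 21 members whose mean exceeded 11 the differences lay between -0.55 and 0.59 with an interquartile range of 0.23. All 697 genes above that level had an interquartile range of 0.76 and a median of 0.12, beside 0.09 for the members. Of the 697, 6.31% were 2-fold higher in TRAP and 4.73% in unbound, and of the 21 members 0 were. The loess setting, which removes the average trend over all genes, gave the family a median of 0.11, beside -0.06 for all genes.

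**Figure D4:**
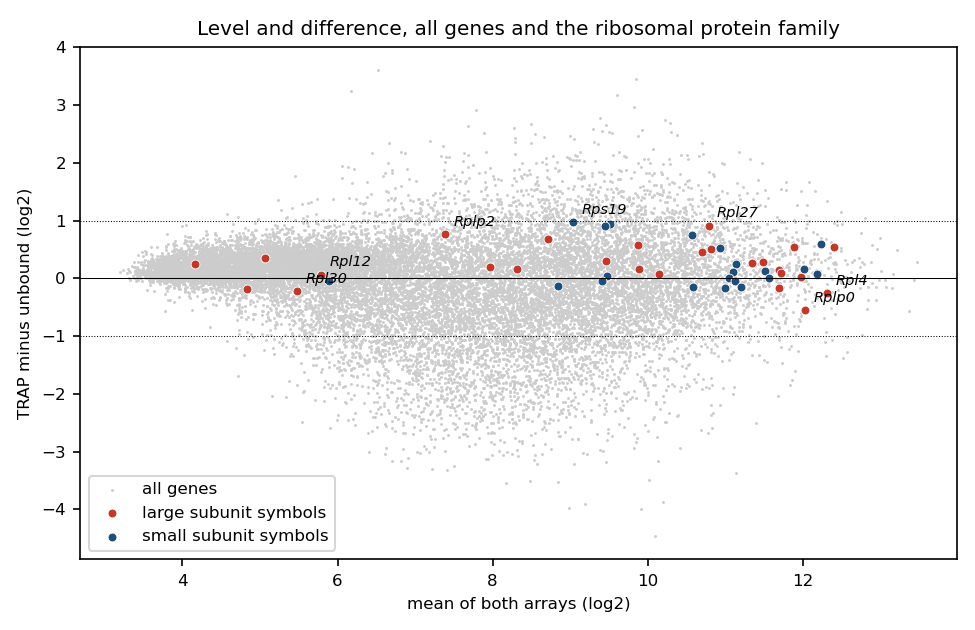
TRAP minus unbound (log2) against the mean of both arrays (log2) for all 19503 genes (grey) and the 48 members (red for large, blue for small subunit symbols); dotted lines mark a 2-fold difference. Members with means above 11 lie between -0.55 and 0.59, and Rpl12 and Rpl30 lie among the genes below the floor.

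The starts of the genes were searched for letters of a pyrimidine tract. RefSeq promoter windows of build GRCm38.p6, 250 bases before to 50 after each annotated start, were matched by gene identifier for 40 members (49 starts, several for 8 genes). The letters CTTTC on the sense strand within 30 bases of a start occurred at 12 of the 49 starts (24.5%), beside 7.93% of the 32851 starts in the table. On the antisense strand the shares were 12.2% of the members' starts and 7.42% of all starts. The letters CCGGAAG, the core recognised by ETS family factors, stood on either strand of the 300-base window at 15 of the 49 starts (30.6%), beside 8.86% of all starts; it can share an end base with CTTTC. Annotated starts may be some bases off the true ones, and a match is not a site. For the pyrimidine tract only the letters CTTTC were searched, so a start without them may still have a tract. Having or lacking these letters is therefore not having or lacking a TOP motif. Of members above the floor, the 9 with CTTTC had a median difference of 0.11 (from -0.26 to 0.77) and the 26 without it one of 0.18 (from -0.55 to 0.97). The 60 bases centred on the start are shown for 8 of those 9, with CTTTC in capitals and in order of their difference (Rpl10a, with 2 annotated starts of which 1 has it, is left out), and for Rpl27 and Rplp0, the core members without it that lie near the 2 ends of the order and have 1 annotated start.
Rplp2 (chr7:141447621-141447680, plus strand): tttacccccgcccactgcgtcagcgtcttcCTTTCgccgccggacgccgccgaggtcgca
Rpl38 (chr11:114668550-114668609, plus strand): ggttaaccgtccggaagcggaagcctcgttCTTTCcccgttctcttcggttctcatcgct
Rpl26 (chr11:68901536-68901595, plus strand): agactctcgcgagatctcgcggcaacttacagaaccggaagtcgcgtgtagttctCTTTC
Rps10 (chr17:27635215-27635274, minus strand): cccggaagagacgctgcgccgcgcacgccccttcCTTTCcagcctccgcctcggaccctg
Rps15a (chr7:118116118-118116177, minus strand): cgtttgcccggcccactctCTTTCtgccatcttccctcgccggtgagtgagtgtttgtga
Rpsa (chr9:120127736-120127795, plus strand): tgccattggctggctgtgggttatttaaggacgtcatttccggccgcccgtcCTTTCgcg
Rpl5 (chr5:107900498-107900557, plus strand): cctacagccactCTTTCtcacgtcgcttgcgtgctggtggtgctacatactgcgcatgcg
Rpl4 (chr9:64173357-64173416, plus strand): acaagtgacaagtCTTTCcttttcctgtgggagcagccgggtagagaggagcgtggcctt
Rpl27 (chr11:101442215-101442274, plus strand): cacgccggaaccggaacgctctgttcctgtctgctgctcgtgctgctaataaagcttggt
Rplp0 (chr5:115559437-115559496, plus strand): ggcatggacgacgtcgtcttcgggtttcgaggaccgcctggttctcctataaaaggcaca
The letters stood near the starts of genes with positive and with negative differences, but not of Rps19, Rps19bp1, Rpl27 or Rplp0. Rplp2, with a difference of 0.77, and Rpl38, with 0.55, have CTTTC directly at the annotated start, and Rpl4 and Rpl5, with -0.26 and -0.16, have it upstream of theirs.

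Fau, which encodes a ubiquitin-like protein fused to ribosomal protein S30 and lies outside the symbol rule, read 10.93 in TRAP and 10.79 in unbound, a difference of 0.14, close to the family median. Other mRNAs with TOP motifs differed more widely. Of 15 above the floor, 12 were higher in unbound, 2 by 2-fold or more, and the median was -0.34. Of all genes above the floor, 44.1% were higher in TRAP and 18.6% were 2-fold or more higher in unbound. Vim, the intermediate filament gene of glia and vessels, read 8.94 in TRAP and 11.88 in unbound, and Pabpc1, the poly(A)-binding protein gene, 11.31 in TRAP and 12.56 in unbound. Eef1d and Naca were higher in TRAP, by 0.39 and 0.27. The median of these genes was -0.01 with the array medians subtracted, -0.42 after quantile normalization and -0.525 with the loess trend removed. They were not tested against the family. The comparison lists overlap: several of these genes, among them Eef1d, Eef1a1 and Eef2, also count among the translation factor symbols below. Npm1 also counts among the genes of ribosome biogenesis.

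Genes of ribosome biogenesis had a median of 0.13 over 51 genes; 5 were 2-fold or more higher in TRAP and 0 in unbound, beside 8.11% and 18.6% of all genes above the floor. Bysl, a small subunit assembly factor, read 9.90 in TRAP and 8.56 in unbound, and Grwd1 read 8.85 in TRAP and 7.58 in unbound. Heatr1 and Pes1, needed for rRNA processing, differed by -0.60 and -0.51. Genes with translation factor symbols, a set that also takes in the kinases and methyltransferases named after them, had a median of -0.03 over 57 genes. With the array medians subtracted that median was 0.30. It was -0.06 after quantile normalization and -0.07 with the loess trend removed. The median of the biogenesis genes was 0.46, 0.28 and 0.19 under these scalings, in the same order. Eef1akmt1, a methyltransferase gene, read 10.53 in TRAP and 8.20 in unbound, and Eif2b4, of the exchange factor of initiation, 8.81 in TRAP and 7.83 in unbound. The kinase gene Eif2ak2 and the cap-binding gene Eif4e3 were higher in unbound, with differences of -1.72 and -1.21.

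The proteins of the mitochondrial ribosome, encoded in the nucleus and made on cytosolic ribosomes, gave a different picture. Of 75 genes, 73 had the higher value in TRAP, 30 by 2-fold or more, beside 44.1% and 8.11% of all genes above the floor. The median difference was 0.86, beside 0.16 for the cytosolic family. Mrpl42 read 10.15 in TRAP and 8.03 in unbound. With 1 array per fraction this gap was not tested. It stood at 1.19 against 0.49 with the array medians subtracted and 1.01 against 0.17 after quantile normalization. With the loess trend removed it stood at 0.92 against 0.11. The higher TRAP values were not particular to the mitochondrial ribosome. Of 74 nuclear genes of oxidative phosphorylation above the floor, 73 were higher in TRAP, 36 by 2-fold or more, beside the same 44.1% and 8.11%. Their median difference was 0.96.

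Markers described what the fractions held. Pcp2 read 12.98 in TRAP and 11.65 in unbound, and all 15 Purkinje cell markers above the floor were higher in TRAP, with median levels of 11.98 in TRAP and 10.29 in unbound. Granule cell markers had median levels of 9.36 in TRAP and 11.22 in unbound, with 10 of 10 higher in unbound. Astrocyte markers had medians of 7.74 in TRAP and 10.35 in unbound (8 of 10 higher in unbound), and oligodendrocyte markers 7.10 in TRAP and 9.24 in unbound (9 of 9 above the floor). Of 10 mural, fibroblast, endothelial and immune markers 4 were above the floor, 3 of them higher in unbound. The endothelial genes Pecam1 and Cldn5 were not above it. In such bulk fractions, fewer cells of a type and less RNA per cell cannot be told apart, and the part of cell composition in the ribosomal protein differences was not tested.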

How the data were processed

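The deposited table gives log2 expression values for 22097 probe sets on 2 arrays, 1 per fraction; per the submitters' processing notes, the authors used Affymetrix Power Tools. For its version, background correction, normalization and log base the entry is: not given in the sources used here. As natural logs the top values would pass what a scanner records, so log2 was assumed. Biotin-labelled cDNA was hybridised, per the labels' protocols. Probe sets were named from the platform annotation: 20999 name 1 gene, 91 several and 1007 are unnamed here. Those naming 1 gene were averaged per gene, with no further scaling, and 10524 of 19503 genes exceeded the floor of 7.08. All 48 members matched RefSeq (GRCm38.p6) by Entrez identifier, which supplied gene types and promoter windows; probe coordinates are not used here.

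No test was possible with 1 array per fraction, and the number of arrays limits the precision. Genes are described by a fold of 2 and lists by counts and medians beside all genes. Named in full are the 8 members at each end of the order, members at or below the floor, Rpl10a, role groups and paralogs, Fau, and up to 2 genes at each end of the comparison lists. Members, lists and alternatives were chosen with earlier results of these data known; a floor of 11 on mean level and the count of core proteins were added after seeing the values. Alternatives were median subtraction, quantile normalization, a loess trend (span 0.3), other floors, probe set choices and folds of 1.5 and 4. The scripts (Python 3.11.15, numpy 2.4.6, pandas 2.3.3, statsmodels 0.14.6) were tested on simulated data.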

Additional observations from a re-analysis of the deposited data

How the results depend on the processing

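The family's median difference of 0.16 was 0.49 with the array medians subtracted, and between 0.09 and 0.17 under the other scalings, floors and probe set choices. The count at least 2-fold higher in TRAP, 0 as deposited, was 7 with the medians subtracted, 4 after quantile normalization and 1 with the loess trend removed; at 1.5-fold it was 8. The count at least 2-fold higher in unbound was 0 under every alternative tried. Members higher in TRAP numbered 15 of 20 when only genes with 1 probe set were used (beside 44.3% of all genes in that setting). With a floor of 11 on the mean of both arrays they numbered 16 of 21 (beside 57.7%). The fall in these counts follows from fewer members. The large minus small subunit gap of 0.13 was 0.26 after quantile normalization, 0.24 with the loess trend removed and -0.0083 with the floor of 11; the cause was not tested. Signs changed in 8 members with the medians subtracted, 7 after quantile normalization and 8 with the loess trend removed, and in 2 with the brightest probe set. No paired analysis was possible because each fraction has 1 array. Leaving out a replicate was not possible for the same reason. Without detection calls, signal over background is unknown.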

Other observations

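Probe sets that name a ribosomal protein gene together with a second gene stand outside the comparisons above, 22 in all. The 8 that name Rpl15 with Gm6937 averaged 12.42 in TRAP and 12.37 in unbound, with differences of 0.03 to 0.09. The 6 that name Rps23 with Gm8624 averaged 12.34 in TRAP and 12.35 in unbound, with differences of -0.01 to 0.03. The 3 that name Rpl35 with Itgam were higher in TRAP by 0.54 to 0.60. The 1 that names Rpl13a with Zfp526 read 11.99 in TRAP and 12.65 in unbound, a difference of -0.66. A probe set naming Rplp0 with Gm5779 differed by -0.57, near the -0.55 of Rplp0 alone. The probe set naming Rpl31 with Clpb differed by -0.19, and those naming Rps3a1 with Tapbp by 0.01 to 0.02, beside 0.05 for Rps3a1 alone.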
